A study of Rattus norvegicus with 24 samples.

Results

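Rats that had been trained and had received corticosterone were compared here with rats that had had neither, and this combined effect was set beside the sum of the effects of each factor alone. The groups were chosen by the titles of the samples, which give the training state and the treatment, and held 6 trained corticosterone and 7 untrained vehicle libraries, 13 of the 24 libraries of the study. All 24 came from the dissected, snap-frozen hippocampus of male Sprague-Dawley rats and were sequenced as stranded, messenger RNA-enriched libraries. The other two groups, 6 untrained corticosterone and 5 trained vehicle libraries, gave the single effects. The labels name no genetic change in any group, and they give no age, dose, training task or time of sampling. They number the samples without tying each one to its own animal. The p-values therefore measure the spread between these samples, which may be technical.

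Corticosterone is the main glucocorticoid hormone of the rat. It enters the brain from the blood and binds the mineralocorticoid and glucocorticoid receptors, transcription factors that move to the nucleus once hormone is bound and raise or lower the transcription of target genes. Neurons of the hippocampus, a region needed for the formation of spatial and episodic memory, carry both receptors. Glucocorticoids released or given around the time of learning are known to strengthen the consolidation of memory, which is why training and hormone are combined in such designs. On a log scale, effects that act independently add up, and a gene for which the hormone acted differently after training would depart from that sum.

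The count table gives genes by Ensembl identifier and does not pair them with names. The reference table of 47357 rat genes holds no Ensembl identifiers, so no match was possible (0 matched). Gene functions are therefore not given, and the tissue could not be checked against its marker genes. The 2 genes with the smallest p in each direction are given by identifier, and others are described by their rank. Total counts in genes ranged from 13760331 to 16765088 reads over the 24 libraries. The trained corticosterone libraries held 15756141 to 16765088 reads and the untrained vehicle libraries 13996453 to 16372332. This difference of 712123 reads on average did not pass (exact permutation test, two-sided as are the others here, p = 0.0897, adjusted p = 0.175 for 5 library measures). Genes with at least 1 read numbered 156 more in trained corticosterone libraries (exact permutation test, p = 0.00932, adjusted p = 0.0466). With every library thinned to 13760331 reads the difference was 84.5 genes (exact permutation test, p = 0.105, adjusted p = 0.175). On the first principal component of the libraries, which carried 31.5% of the variance, 8 libraries stood apart from the other 16. They were 3 of the 6 trained corticosterone, 1 of the 7 untrained vehicle, 3 of the 6 untrained corticosterone and 1 of the 5 trained vehicle libraries. The gene that loads most on this component ran from 1748 to 4674 CPM in these 8 and from 5.70 to 458 CPM in the 16. Levels in CPM are read counts divided by the library total, after TMM scaling, and set to a common total.

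In trained corticosterone rats 45 genes rose and 14 fell against untrained vehicle rats, 59 of the 14838 genes tested. The largest rise was 5.58-fold, for ENSRNOG00000017198. Most changes were small. Of the genes that rose, 6 did so by a factor of 2 or more, 24 stayed below a factor of 1.5 and 15 lay in the range from 1.5 to 2. Of those that fell, 1 reached a factor of 2 and 13 stayed below 1.5. A gene was called when its adjusted p was under 0.05 in edgeR's quasi-likelihood test with Benjamini-Hochberg adjustment, in a model of the 4 group means over all 24 libraries. The share of all tested genes called was 0.398%, with 0.303% called higher and 0.0944% called lower.

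ENSRNOG00000017198 had the smallest p. Its level in untrained vehicle libraries was 0.708 CPM at the lowest, 0.972 CPM at the median and 1.47 CPM at the highest. In trained corticosterone libraries the lowest, median and highest levels were 3.06, 5.52 and 9.15 CPM. The groups did not overlap, and the lowest trained corticosterone library stood above the highest untrained vehicle library. The log2 fold change was 2.48 (SE 0.23, edgeR adjusted p = 1.70e-06). The trained vehicle libraries, at 0.927, 0.944, 1.26, 1.30 and 1.91 CPM, lay in and just above the untrained vehicle range. The untrained corticosterone libraries, between 4.59 and 7.33 CPM with a median of 5.14 CPM, lay within the range of the trained corticosterone libraries.

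ENSRNOG00000056457 had the most reads of the genes that rose. It was at 74.3, 86.3 and 114 CPM at the lowest, median and highest in untrained vehicle libraries. In trained corticosterone libraries these levels were 156, 205 and 268 CPM, again without overlap. This was a rise of 2.32-fold, or 1.22 on the log2 scale (SE 0.13), with an edgeR adjusted p of 1.49e-05. Its levels in the 5 trained vehicle libraries were 68.5, 90.4, 105, 113 and 123 CPM. In untrained corticosterone libraries they ran from 179 to 280 CPM with a median of 215 CPM, and every corticosterone library of either training state stood above every vehicle library.

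ENSRNOG00000014096 had the smallest p of the genes that fell. It was at 87.1, 95.6 and 100.5 CPM at the lowest, median and highest in untrained vehicle and at 74.5, 79.7 and 82.1 CPM in trained corticosterone libraries. The groups did not overlap, and the change was -0.27 on the log2 scale (SE 0.05), at an edgeR adjusted p of 0.00406. Its trained vehicle levels of 83.9, 86.6, 90.2, 95.3 and 102 CPM overlapped those of untrained corticosterone libraries, which ran from 74.0 to 87.5 CPM. ENSRNOG00000039464 fell from a range of 117 to 134 CPM (median 126 CPM) to one of 101 to 113 CPM (median 104 CPM). This fall of -0.26 on the log2 scale (SE 0.05, edgeR adjusted p = 0.00456) was without overlap. Its trained vehicle libraries were at 113, 116, 118, 128 and 132 CPM and its untrained corticosterone libraries between 97.6 and 117 CPM. Without the 8 libraries that stood apart, which leaves 3 trained corticosterone and 6 untrained vehicle libraries, neither fall passed (edgeR adjusted p = 0.204 and 0.0518), at log2 changes of -0.23 and -0.27. Over all 35 alternative fits the log2 change lay between -0.30 and -0.23 for ENSRNOG00000014096 and between -0.28 and -0.24 for ENSRNOG00000039464.

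**Figure D1:**
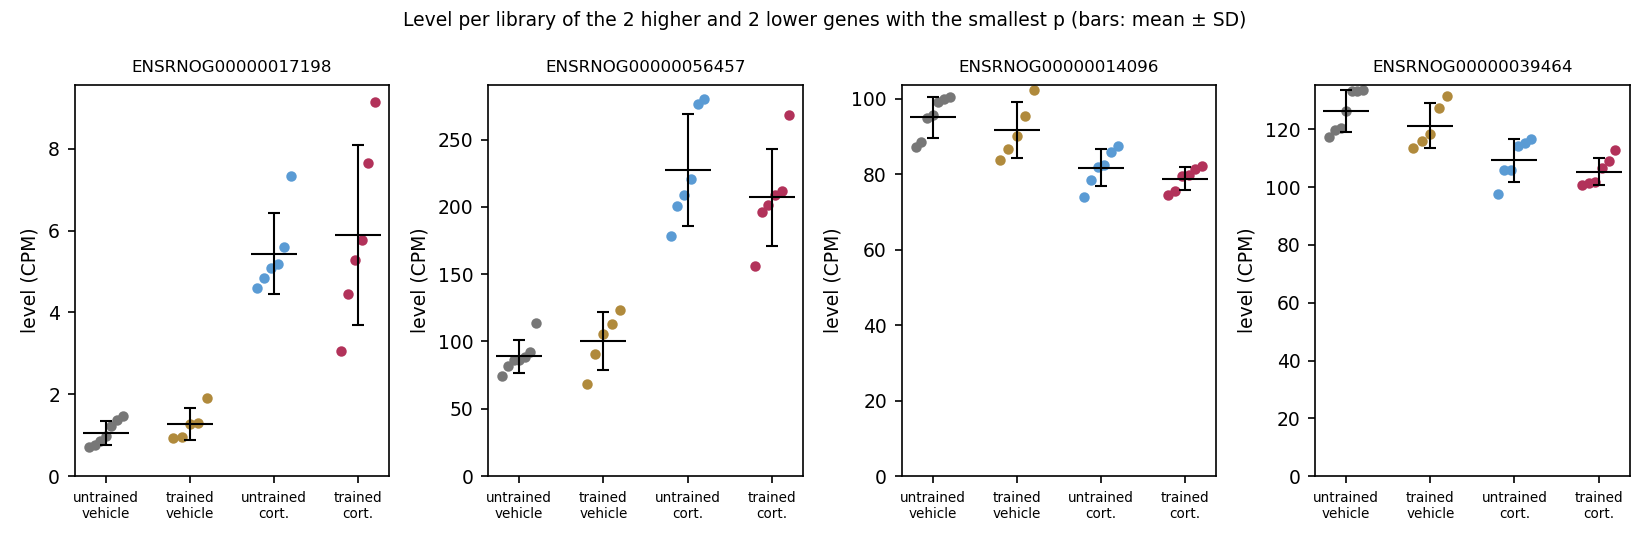
Level in CPM (vertical axes, from 0) in each library of the 4 groups (horizontal axes) for the 2 genes that rose and the 2 that fell with the smallest p. Points are libraries, and bars are the mean and SD of a group. In all 4 panels the trained corticosterone points do not overlap the untrained vehicle points, and the untrained corticosterone points lie near those of trained corticosterone.

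Among the other genes that rose, the one with the third smallest p went from 1.60 to 2.36 CPM in untrained vehicle libraries to 3.89 to 9.76 CPM in trained corticosterone libraries (log2 fold change 1.55, SE 0.17). The fourth was called on a change of only 1.41-fold. Its range was 41.7 to 52.6 CPM in untrained vehicle and 63.9 to 71.2 CPM in trained corticosterone libraries. The fifth rose 1.97-fold, from a median of 13.5 CPM to one of 26.0 CPM, and the sixth 1.42-fold, from 33.4 CPM to 46.4 CPM. All of these were without overlap between the groups. The smallest change called was a rise of 1.14-fold, in a gene at 68.3 to 76.5 CPM in untrained vehicle and 78.1 to 88.9 CPM in trained corticosterone libraries (log2 fold change 0.19, SE 0.04, edgeR adjusted p = 0.0130). The gene with the most reads among those that fell went from 144 to 196 CPM (median 191 CPM) to 104 to 141 CPM (median 130 CPM), a log2 change of -0.46 (SE 0.09) at an edgeR adjusted p of 0.0133.

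The 59 called genes had mean levels, in reads and not per gene length, between 0.696 and 156 CPM, with a median of 22.7 CPM, against 21.2 CPM over all genes tested. Their median log2 change in the direction of the call was 0.50, with quartiles of 0.36 and 0.76. It was 0.54 for the genes that rose and 0.38 for those that fell. Every trained corticosterone library lay beyond every untrained vehicle library for 35 of the 45 genes that rose and 8 of the 14 that fell. Over all genes tested this separation was found for 50 higher (0.337%) and 22 lower genes (0.148%), so that 15 and 14 separated genes were not called. No gene (0 in either direction) was present in every library of one of these groups and without reads in every library of the other.

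Within the trained corticosterone group, replicate 28 stood out in the genes that rose. It had the highest level of the 6 libraries in 34 of the 45 genes, where the others had it in 1 to 4. The same count over all genes tested is not given, so whether this is particular to the 45 was not tested. These genes were called on high levels in this group, which a high library favours, and they may vary together. The 45 genes summed to 1805 CPM in replicate 28 and to 1420 to 1530 CPM in the other 5. In untrained vehicle libraries the same sum was 1020 to 1129 CPM. Without replicate 28, 50 genes were called, and 46 of the 59 passed, 34 of them higher and 12 lower. The median log2 change of the 59 was then 0.45. The 14 genes that fell summed to 541 to 615 CPM in trained corticosterone and 674 to 803 CPM in untrained vehicle libraries. Trained corticosterone replicate 3 was lowest of its group in 8 of the 14, again without a count over all genes tested. Without trained corticosterone replicate 3 the number of genes called lower was 8, and without replicate 8 it was 6.

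With DESeq2 on the same genes, 92 were called, 58 higher and 34 lower, and these held all 59 of the edgeR calls. In the fit of only the 13 libraries compared, 41 were called, 35 higher and 6 lower, of which 39 were among the 59. Without the 8 libraries that stood apart on the first component, 31 were called, 29 higher and 2 lower, of which 28 were among the 59. With a block term for each run of 5 sample numbers, 34 were called, 30 higher and 4 lower, all among the 59. The labels do not say that such a run is a batch. Without the library of sample 41, whose title says untrained vehicle but whose column is placed with those of the trained vehicle group, 51 were called. Leaving out each of the 24 libraries in turn, 38 of the 59 genes passed in every fit, 33 higher and 5 lower. Over all 35 alternative fits, these 24 included, 17 of the 59 passed in every one.

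Large fold changes were mostly not called. Of the 124 genes that differed at least 2-fold between the groups (0.836% of those tested), 7 were called and 117 were not, 104 of these higher and 13 lower. The median SE of the log2 fold change was 0.82 in the 117 genes and 0.09 in the 59 called ones. The level of 89 of the 117 genes (76.1%) had a correlation of at least 0.7 in size with the first principal component over the 24 libraries, against 2 of the 59 called genes (3.39%) and 4.43% of all genes tested. The component was taken from these same genes without scaling, so genes that vary most weigh most in it. The 117 were chosen for large changes that were not called, which favours large errors, and the 59 for being called. These shares are therefore no test of why large changes were not called. The gene with the largest loading differed by 1.90 on the log2 scale between the compared groups (SE 1.56), which did not pass (edgeR adjusted p = 0.859). The component was a mean of 14.5 higher in trained corticosterone than in untrained vehicle libraries, which did not pass an exact permutation test (p = 0.250, adjusted p = 0.312). Fewer cells of a type and less RNA per cell cannot be told apart in whole-tissue libraries. With the first component as a covariate 69 genes were called, 57 of them among the 59.

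**Figure D2:**
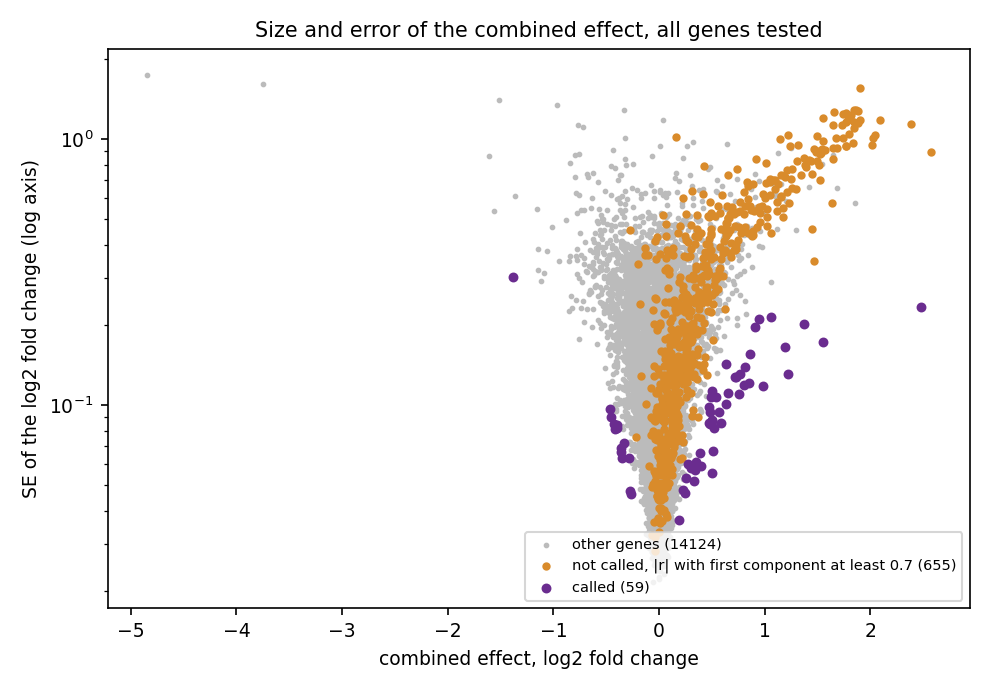
Combined effect as log2 fold change (horizontal axis) and its SE (vertical axis, log scale) for all 14838 genes tested. Purple points are the 59 called genes, and orange points are uncalled genes whose level had a correlation of at least 0.7 in size with the first principal component. The orange points reach the largest rises together with the largest SE, while most purple points have an SE near 0.1.

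The next comparison asked whether the combined effect equalled the sum of the single effects, that of corticosterone in untrained rats and that of training under vehicle. It did so within the error for nearly all of the 59 genes. No gene departed from the sum by the test (edgeR, 0 of 14838, smallest adjusted p = 0.378). The unadjusted p was under 0.05 for 634 genes with edgeR, 580 with DESeq2 and 655 with limma-voom, and these other tools called 0 as well. This number was 1086 without trained vehicle replicate 10, 1005 without the 8 libraries that stood apart and 981 with no filter on low counts, and 0 genes were called in these fits too. If no gene differed, a share of about 0.05 of the genes tested would still have such a p. This holds for such counts in the other contrasts as well. The departure is the interaction of training and treatment on the log2 scale. Its sampling error is nearly unrelated to that of the combined effect, with an expected correlation of 0.052 at these group sizes and equal spread. On that expectation alone, choosing genes by the combined effect would move their departures little. Over all genes tested, signed by their own combined effect, the departures were not evenly divided. The combined effect was smaller than the sum in 41.7%, with a median departure of 0.02.

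For ENSRNOG00000017198 the log2 fold change of corticosterone alone was 2.36 (SE 0.24) and that of training alone 0.28 (SE 0.28). Their sum was 2.65 (SE 0.45), and the combined effect of 2.48 was 0.17 smaller, with a 95% interval of the departure from -0.88 to 0.55. For ENSRNOG00000056457 corticosterone alone gave 1.35 (SE 0.13) and training alone 0.17 (SE 0.14). The combined log2 fold change of 1.22 lay below their sum of 1.53 (SE 0.23), with a departure of -0.31 (95% interval -0.71 to 0.09). ENSRNOG00000014096 had single effects of -0.22 (SE 0.05) and -0.05 (SE 0.05) and a combined effect of -0.27, and its departure was 0.00 (95% interval -0.14 to 0.15). For ENSRNOG00000039464 the single log2 changes were -0.21 (SE 0.05) and -0.06 (SE 0.05), and the departure was 0.01 (95% interval -0.13 to 0.15). None of the 4 departures passed (edgeR adjusted p = 0.962 or more). The intervals of the genes that fell stay within 0.15 of 0 on the log2 scale, whereas those of the genes that rose allow a departure of over 1.5-fold.

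Over the 59 genes, in the direction of the call, the median log2 change was 0.42 for corticosterone alone and 0.06 for training alone. The median of the sums was 0.46 and that of the combined effects 0.50. The single and combined effects share the untrained vehicle libraries, so these medians are set side by side without a test. The genes were called on the combined effect, which favours large values of it. The combined effect was smaller than the sum for 31 genes and larger for 28, and the median departure was 0.00. This even division was lost without the 8 libraries that stood apart, where 15 of the 59 were smaller than the sum and the median departure was 0.06. Over all genes tested, signed by their own combined effect, 41.7% were smaller than the sum and the median departure was 0.02. The 95% intervals of the 59 called genes reached 0.27 to either side at the median, in log2 units. The whole interval of the departure lay within 1.5-fold in either direction in 48 of the 59 (81.4%) and within 2-fold in 57. The combined effect itself was under 1.5-fold in 37 of the 59. For such genes an interval within 1.5-fold can still hold a departure as large as the effect. Over all genes tested 73.2% had an interval within 1.5-fold.

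**Figure D3:**
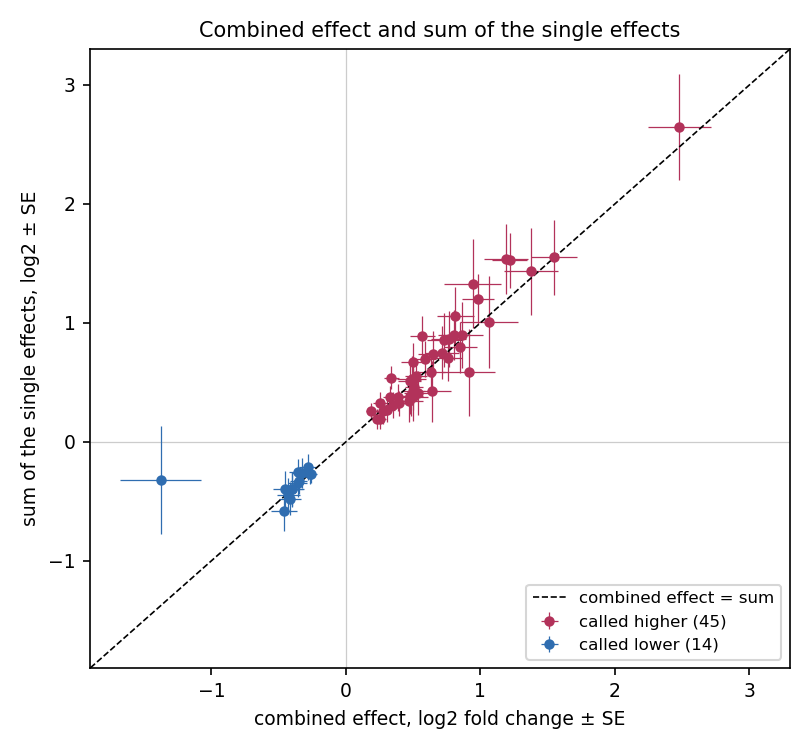
Combined effect (horizontal axis) and sum of the single effects (vertical axis) as log2 fold changes, with SE bars, for the 45 genes called higher and the 14 called lower. The dashed line marks equal values. Most points lie on the line within their bars, and the untrained vehicle libraries enter both axes.

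For genes that rose the median departure was -0.03, with 25 of 45 below the sum. For those that fell it was 0.01 in the direction of the call, with 6 of 14 smaller than the sum. Over all genes tested, signed by their own combined effect, this share was 41.7%. The sum was less precise than the combined effect, with a median 95% half-width of 0.32 against 0.18 on the log2 scale, since it is drawn from 3 groups and counts untrained vehicle with a weight of 2. Tested as a contrast of its own, the sum passed for 3 genes, all of them higher and among the 59 (0.0202% of those tested). The combined estimate lay within the 95% interval of the sum for 58 of the 59 genes. This count is more lenient than the interval of the departure, whose median half-width was 0.27 against 0.32 for the sum. It adds nothing to the test of the departure.

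Of the 59 genes, 3 had a 95% interval of the departure that did not hold 0, and none of these passed after adjustment (edgeR adjusted p = 0.962 for each). The first was the called gene with the fewest reads, 2 to 20 reads per library, and the only one to fall at least 2-fold. Its levels (mean ± SD) were 0.871 ± 0.227 CPM over the 7 untrained vehicle libraries, 0.824 ± 0.227 CPM over the 6 untrained corticosterone libraries, 0.738 ± 0.0948 CPM over the 5 trained vehicle libraries and 0.329 ± 0.204 CPM over the 6 trained corticosterone libraries. Neither factor alone gave more than a log2 fold change of -0.24 (SE 0.28), against -1.38 (SE 0.30, edgeR adjusted p = 0.0245) for the combination. The departure was -1.06 (95% interval -1.92 to -0.19, unadjusted p = 0.0167). In 5 of the 6 trained corticosterone libraries it was below every untrained vehicle library. The gene was called for the combined effect in 25 of the 34 alternative fits that tested it (edgeR, DESeq2 or limma adjusted p from 0.00437 to 0.303). Its departure kept its direction in all of those that gave one, from -1.38 to -0.72.

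The other two rose less than the sum. One was (mean ± SD) at 20.4 ± 1.21 CPM over the 7 untrained vehicle libraries, 28.5 ± 2.64 CPM over the 6 untrained corticosterone libraries, 21.3 ± 1.11 CPM over the 5 trained vehicle libraries and 25.8 ± 1.68 CPM over the 6 trained corticosterone libraries. Its departure was -0.20 (95% interval -0.38 to -0.03, unadjusted p = 0.0248). The other went from 25.1 ± 3.48 CPM over the 7 untrained vehicle libraries to 39.1 ± 3.82 CPM with corticosterone alone (SD, n = 6), 29.7 ± 5.14 CPM with training alone (SD, n = 5) and 37.1 ± 2.53 CPM with the combination (SD, n = 6). Its departure was -0.32 (95% interval -0.61 to -0.03, unadjusted p = 0.0303). An unadjusted p under 0.05 for the departure was thus found in 3 of 59 called genes, beside 634 of 14838 tested. It was found in 6 of the 59 without trained corticosterone replicate 28, and in 1 without trained vehicle replicate 20 or without untrained corticosterone replicate 14.

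**Figure D4:**
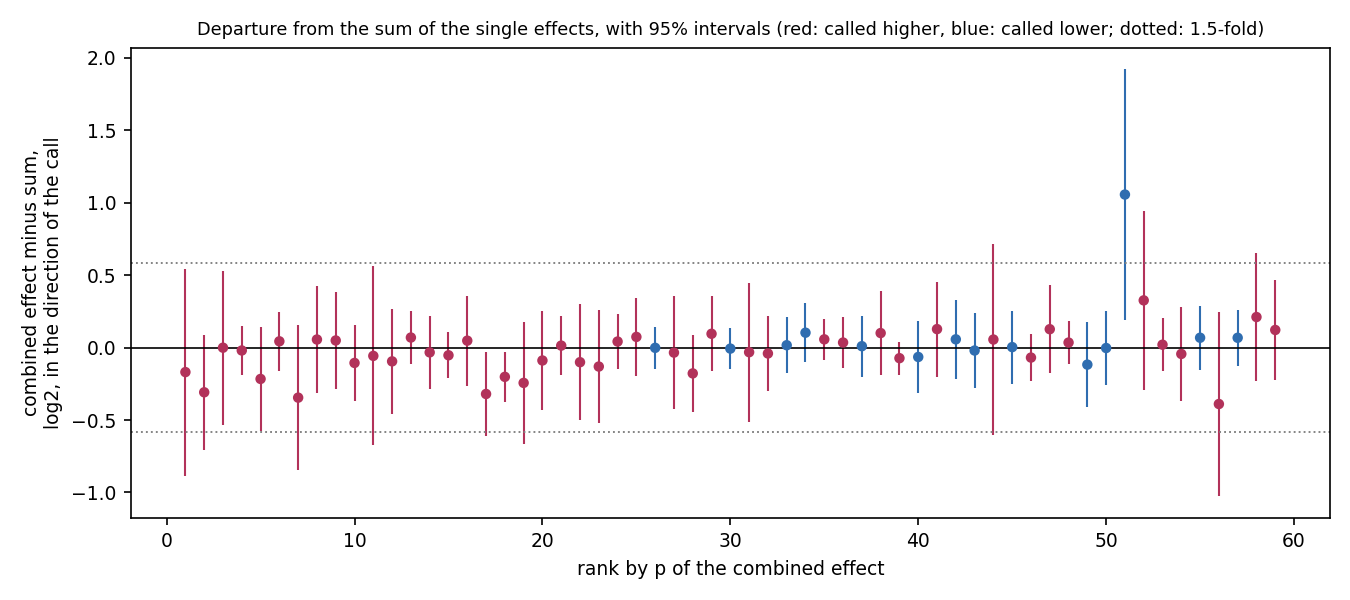
Combined effect minus the sum of the single effects (vertical axis, log2, signed in the direction of the call) for the 59 called genes in order of the p of the combined effect (horizontal axis). Points are estimates, bars are 95% intervals, and dotted lines mark 1.5-fold in either direction. Of the 59 intervals 56 hold 0, and the point above all others is the gene with the fewest reads, with a departure of -1.06 before the sign is turned.

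The sum was also taken on the linear scale. The 45 genes that rose together held (mean ± SD) 1050 ± 36.4 CPM over the 7 untrained vehicle libraries, 1094 ± 46.8 CPM over the 5 trained vehicle libraries, 1539 ± 93.6 CPM over the 6 untrained corticosterone libraries and 1539 ± 135 CPM over the 6 trained corticosterone libraries. The combined rise was thus 489 CPM (SE 56.8). The single effects, 489 CPM (SE 40.6) for corticosterone and 43.9 CPM (SE 25.1) for training, summed to 533 CPM (SE 51.5). The departure of -44.0 CPM (SE 71.6) was smaller than its error. Both the trained corticosterone mean and this error include replicate 28, at 1805 CPM where the other libraries of that group were at 1420 to 1530 CPM. That library raises the mean and widens the error. The linear departure is not given without it, so the closeness of these sums may rest on 1 library. The 14 genes that fell held 745 ± 53.3, 705 ± 30.9, 627 ± 32.6 and 583 ± 31.4 CPM (SD) in the same order of groups. Their sum of single effects was -158 CPM (SE 44.6) and the combined effect -162 CPM (SE 23.9). Gene by gene, 30 of the 59 changed by less than the linear sum and 29 by more, and the median ratio of the combined change to that sum was 99.5%.

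Neither contrast of training, under vehicle or under corticosterone, gave a called gene, and only that under vehicle enters the sum. Training under vehicle called 0 genes (edgeR, smallest adjusted p = 0.328, 338 at an unadjusted p under 0.05), as did DESeq2 (270) and limma-voom (321). The 338 became 545 without trained vehicle replicate 10 and 585 with no filter on low counts. Training under corticosterone called 0 (edgeR, smallest adjusted p = 0.812, 903 at an unadjusted p under 0.05), as did DESeq2 (860) and limma-voom (858). Without trained corticosterone replicate 3 the 903 became 535, and without the 8 libraries that stood apart 1769 (edgeR, smallest adjusted p = 0.205), again with 0 called. For the 59 genes the 95% interval of training alone lay within 1.5-fold in 53 and that of training under corticosterone in 56. The largest training effect under vehicle among them was one of 0.53 on the log2 scale (SE 0.18, edgeR adjusted p = 0.9999). This gene was (mean ± SD) at 1.89 ± 0.270 CPM over the 7 untrained vehicle libraries, 2.72 ± 0.343 CPM over the 5 trained vehicle libraries, 3.81 ± 0.894 CPM over the 6 untrained corticosterone libraries and 4.32 ± 1.28 CPM over the 6 trained corticosterone libraries. Corticosterone called 53 genes in untrained rats (0.357%), 48 higher (0.323%) and 5 lower (0.0337%), and 24 in trained rats (0.162%), in contrasts that share libraries with the combined one. Without the 8 libraries that stood apart these counts were 10 and 15, and with the block for runs of sample numbers 24 and 10.

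The levels of the 59 genes were also compared between the 11 libraries that make up the other two groups, untrained corticosterone and trained vehicle, which have no part in the combined contrast. There the difference is that of corticosterone alone minus training alone. All 45 genes that rose were higher in untrained corticosterone than in trained vehicle, and 21 of them passed over all genes tested. In that contrast 23 genes were called in all (0.155%), all higher, so that 21 of the 59 (35.6%) and 21 of the 23 (91.3%) were shared. Of the 14 genes that fell, 12 were lower in untrained corticosterone, and 0 passed. Of the 14, 8 were lower at an unadjusted edgeR p under 0.05. Over all 14838 genes tested, 595 had such a p and the sign of their combined effect. DESeq2 called 38 genes in this contrast and limma-voom 22. Over all genes tested, 55.4% had the sign of their combined effect there.

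The sizes were similar for the genes that rose, with a median log2 change of 0.46 against 0.54 in the contrast that selected them. For those that fell it was 0.18 against 0.38. Over all genes tested it was 0.01 in the sign of the combined effect. ENSRNOG00000017198 was 2.08 higher on the log2 scale (SE 0.26) and ENSRNOG00000056457 was 1.18 higher (SE 0.14), each at an edgeR adjusted p of 8.84e-05. The log2 differences of ENSRNOG00000014096, at -0.16 (SE 0.05), and ENSRNOG00000039464, at -0.15 (SE 0.05), did not pass (edgeR adjusted p = 0.482 and 0.565). Every untrained corticosterone library lay above every trained vehicle library for 30 of the 45 genes that rose, where 0.458% of all genes tested did so. For 1 of the 14 that fell it lay below, beside 0.323% of all genes. The gene at 2 to 20 reads, with the largest fall in the combined contrast, had a log2 fold change of 0.17 (SE 0.29) in these groups.

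**Figure D5:**
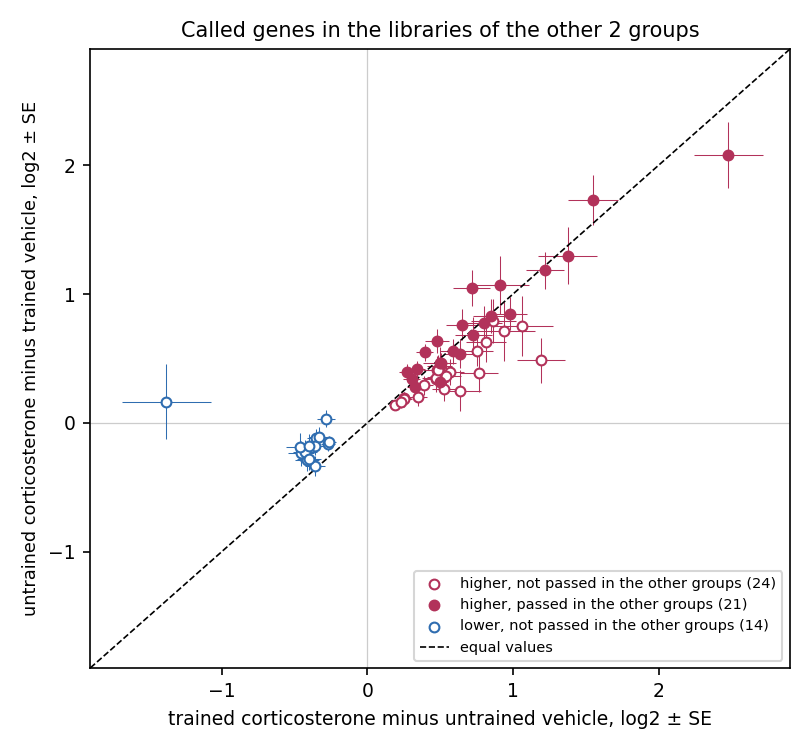
Log2 fold change, with SE bars, of the 59 called genes in trained corticosterone minus untrained vehicle (horizontal axis) and in untrained corticosterone minus trained vehicle (vertical axis), which share no library. Filled points passed on the vertical axis as well, and the dashed line marks equal values. The 45 genes that rose all lie above 0 on the vertical axis, 21 of them filled, and 12 of the 14 that fell lie below 0.

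Those values came from one model, in which all groups share the estimate of the spread. With the pairs of groups fitted apart, so that filter, scaling and spread were also separate, 41 genes were called in the 13 libraries and 15 in the 11. Of the 41, 40 had the same sign in the 11 libraries, 35 of 35 higher and 5 of 6 lower, and 14 were called there as well. The median log2 change of the 41 was 0.50 in the 13 libraries and 0.44 in the 11. In the other direction, the 23 genes called in the 11 libraries in the common model were all higher in trained corticosterone than in untrained vehicle rats. Their median log2 change was 0.63 there and 0.64 in the contrast that selected them, and 21 of the 23 were called. Without the 8 libraries that stood apart, the contrast of untrained corticosterone and trained vehicle called 2 genes.

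In the combined contrast the 95% interval reached 0.16 to either side at the median gene, in log2 units. It excluded a change of 1.5-fold or more in 12340 tested genes (83.2%) and one of 2-fold or more in 14001 (94.4%). For the departure the same distance was 0.24. In simulated data a change of 0.5 on the log2 scale was called in 76 of 100 genes for the combined contrast and in 52 of 100 for the departure. A change of 1 was called in 93 and 82 of 100.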

How the data were processed

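RNA was measured by RNA-seq in 24 hippocampus libraries. The authors deposited raw counts per Ensembl gene, made with STAR 2.7.0b and HTSeq 0.6.1 on build rn6, per the submitters' processing notes. Which annotation release was used, and with which strand option, is not stated there. Values of overlapping, antisense and near-identical genes are therefore uncertain. The 5 summary rows of the read counter were left out, and they hold, for example, 21.5% to 22.6% of a library as reads in no gene. Samples were grouped by title. Of 32883 genes, 14838 passed filterByExpr. After TMM scaling they were tested with edgeR 4.0.16 in R 4.3.3 (glmQLFit, glmQLFTest, Benjamini-Hochberg adjustment over all genes in each contrast). SE are Wald errors of the fit, and principal components used log2 CPM with a prior count of 2. Alternatives used DESeq2 1.42.0, limma 3.58.1 and sva 3.50.0.

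Genes named by identifier are the 2 higher and 2 lower with the smallest p and a mean of at least 1 CPM, and those described by rank were chosen after their values were seen. The comparison and lists were chosen with earlier results of these data known. The 20 lists of pathway and marker genes could not be looked up, and results that need gene names are not reported here. No pair of libraries within the compared groups agreed within sampling noise (smallest chi-square per degree of freedom 4.28). The script was tested on simulated data with 200 changed genes per contrast, drawn independently. Reads carry no molecular identifiers, and no interval here covers duplicate molecules.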

Additional observations from a re-analysis of the deposited data

Results flagged for a closer look

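Within a group, 7 values lay farther from the nearest library than Dixon's 95% limit allows, and chance alone gives about 1 in 20 of the 48 groups of values tested. The sum of the genes called higher was 1805 CPM in trained corticosterone replicate 28, where the next library was at 1530 CPM. In untrained vehicle replicate 27 it was 1129 CPM, with the next at 1057 CPM. The share of reads in no gene was 22.6% in trained corticosterone replicate 3, with the next at 21.8%. ENSRNOG00000017198 was at 7.33 CPM in untrained corticosterone replicate 39, with the next at 5.59 CPM. Untrained vehicle replicate 17 was at 27.04 on the first principal component, where the next untrained vehicle library was at -5.29. The gene that loads most on it reached 3064 CPM there, with the next at 271 CPM. It was at 1748 CPM in trained vehicle replicate 5, with the next at 33.5 CPM. These libraries were kept.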

How the results depend on the processing

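No paired analysis was made, since the replicate numbers are sample numbers that each occur once and the labels state no matching. By sample number the groups mostly follow 1 repeating order: untrained vehicle, trained corticosterone, untrained corticosterone and trained vehicle. The runs of 5 used as the block here follow that order, but the labels do not say that neighbouring numbers are matched. The choroid plexus covariate could not be fitted, since markers could not be looked up, and the first principal component took its place after seeing the data, as did the fit without the 8 libraries that stood apart. In the combined contrast the counts that moved by over 1.5 times were 92 with DESeq2 (34 lower), 34 with a block for each run of 5 sample numbers (4 lower), 31 without the 8 libraries (29 higher, 2 lower) and 6 lower in the fit of the compared groups alone, which has fewer libraries. Leaving out 1 library gave 46 to 64 called, 34 to 51 higher and 6 to 18 lower. Corticosterone in untrained rats called 53 genes, and 87, 24 and 10 with DESeq2, the block and without the 8 libraries, and 33 to 62 without 1 library, with 33 or 34 without untrained corticosterone 29 or 39 or untrained vehicle 7 or 41. In trained rats it called 24, and 61, 10, 15 and 13 with DESeq2, the block, without the 8 and in the compared groups alone, and 14 (without trained vehicle 10) to 27 without 1 library. Untrained corticosterone against trained vehicle called 23, and 38, 7, 2 and 15 under these 4 settings, and 16 to 27 without 1 library. The cause of these changes in the number of genes called was not tested. The fits on fewer libraries also differ in filter, scaling and spread, which cannot be told apart from the number of libraries. The departure and both training contrasts called 0 genes in every fit run, with 473 to 1086 (departure), 270 to 585 (training under vehicle) and 535 to 1769 (training under corticosterone) at an unadjusted p under 0.05. Departures of the 4 identified genes passed in none of 34 fits. Their sign changed in 2 fits for ENSRNOG00000017198 (-0.34 to 0.20), 15 for ENSRNOG00000014096 (-0.03 to 0.05), 13 for ENSRNOG00000039464 (-0.04 to 0.04) and 0 for ENSRNOG00000056457 (-0.41 to -0.08). Leaving out 1 of the 13 libraries, the mean difference in total count ran from 481746 to 877726 reads (exact permutation p from 0.00866, without untrained vehicle 22, to 0.201), in genes with a read from 127 to 186, in genes at one depth from 60.7 to 108 (p from 0.0368, without untrained vehicle 17, to 0.213, and 0.0498 without 32), in the percentage of reads in no gene from -0.304 to -0.0686 (p from 0.0366, without trained corticosterone 3, to 0.742) and in the first component from 8.79 to 21.2. Depth limits genes with few reads, such as the one at 2 to 20.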
